A study of Mus musculus with 8 samples.

Results

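Stat3 KO and Stat3 WT mouse embryonic fibroblasts were compared after treatment with oncostatin M (OSM), which belongs to the interleukin-6 cytokines, so the text describes what differed between the genotypes while the pathway was being stimulated. The comparison uses 4 of the 8 arrays of the study: 2 arrays of Stat3 KO cells with OSM and 2 of Stat3 WT cells with OSM, chosen by sample title and paired by the title numbers 02 and 03. The Stat3 WT group (STAT3+/+) carries both copies of the gene and the Stat3 KO group (STAT3-/-) carries neither. Both are lines that immortalized spontaneously in culture, and both were grown in medium with 10% serum and 2 mM glutamine. OSM was given at 20 ng/ml for 30 minutes. The other 4 arrays are the same lines without OSM. Treatment was taken from the titles, because the growth text of untreated samples names OSM as well. Each genotype is a single line, so the loss of Stat3 and any other difference between these lines cannot be told apart. The sources used here do not give the deleted stretch of the gene.

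Expression was measured on an Affymetrix array, and values are log2 units made with GCRMA, which corrects each probe set for background. A probe set is a group of short probes that together read 1 transcript. Of 12488 probe sets, 10833 have 1 gene symbol, for 8251 genes. The test ran on the 6756 probe sets that read at least 5 on at least 2 arrays, and 6155 of these have 1 symbol. They represent 5195 genes, each described through its kept probe set with the highest mean.

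OSM binds a receptor made of the OSM receptor chain (Osmr) and gp130 (Il6st), or of the LIF receptor (Lifr) and gp130. The bound receptor activates JAK kinases, which phosphorylate STAT3, and it also activates the ERK kinases. Phosphorylated STAT3 enters the nucleus and switches on genes that include its own inhibitor Socs3. Interferons also signal through JAK kinases, and they induce a set of antiviral and antigen presentation genes.

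The arrays separated first by title number. The first principal component held 56% of the variance, with the arrays numbered 03 at 32.46 to 51.46 and those numbered 02 at -54.69 to -48.05, except Stat3 KO with OSM 02, which stood apart from its number at -19.43. That array correlated best with arrays of its own number (0.947 with untreated Stat3 KO 02, 0.940 with Stat3 WT with OSM 02). It correlated at 0.926 with Stat3 KO with OSM 03, while Stat3 WT with OSM 02 and 03 correlated at 0.876. The 18S ribosomal control read 11.03 and 14.75 on the Stat3 WT arrays with OSM and 11.67 and 14.88 on the Stat3 KO arrays, so it moved with the number and little with the genotype. The 3′ actin control read 15.44 and 16.24 in Stat3 WT with OSM and 14.63 and 16.5 in Stat3 KO with OSM. The 3′ Gapdh control read 15.28 and 15.86 against 14.73 and 15.6. Stat3 KO with OSM 02 was the lowest of all arrays for both. The part of this in other results was not tested. What the number stands for, and whether arrays came from separate cultures, is not given in the labels. The p-values therefore cover only the spread among these arrays, and that spread may be technical. The number was fitted as a block, which removes a difference between 02 and 03 that all groups share. It does not remove one that differs between genotypes.

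With OSM, 7 probe sets passed the test (limma with the replicate block, adjusted p under 0.05). 4 were higher in Stat3 KO, which is 0.0592% of those tested, and 3 were lower, which is 0.0444%. The higher ones read the chemokine Cx3cl1, the matrix protein periostin (Postn), the transcription factor Irf1 and the receptor Notch1. The lower ones read P-selectin (Selp), Stat3 itself and the motor protein Myo5b. Without adjustment, 342 probe sets were higher and 472 lower at p under 0.05. A second count used no test and took genes at least 2-fold apart in the same direction in both numbers. It held 109 genes higher in Stat3 KO (2.1% of genes tested) and 95 lower (1.83%).

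The called count depends on how the number is fitted. With no replicate block 1 probe set passed, that of Cx3cl1, and with a block fitted separately for each genotype 243 passed, 142 higher (2.1%) and 101 lower (1.49%), among them all 7. Of the 73 named genes that did not pass with the shared block, 46 passed with the separate ones. Below, not passed refers to the shared block, and genes described in detail whose call changes with separate blocks are given with that adjusted p. Separate blocks take a disagreement between the 02 and 03 pairs out of the error, as far as both treatments share it. That adjusted p therefore leaves out this part of the spread of the genotype difference. It shows only that the call depends on the block. Leaving out any 1 array left 0 to 2 calls. Without Stat3 WT with OSM 02 the 2 calls were Cx3cl1 and Selp, and without Stat3 KO with OSM 03 there were 2 others. Leaving out Stat3 KO with OSM 02 or any other single array left none. The differences of the 7 kept their direction each time.

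Across all 5195 genes the median difference was -0.01, 49.3% of genes were above 0, and the median standard error was 0.28. The 02 pair and the 03 pair gave the same sign for 56.9% of genes, and their differences correlated at r = 0.282 across genes, which are not independent replicates. At the edge of the 2-fold count, Isg15 (1.0 and 2.06 in the 2 pairs) was just inside and Sgce (0.99 and 1.03) just outside among higher genes. Among lower genes Supv3l1 (-1.78 and -1.0) was just inside and Trim27 (-1.08 and -1.0) just outside.

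**Figure D1:**
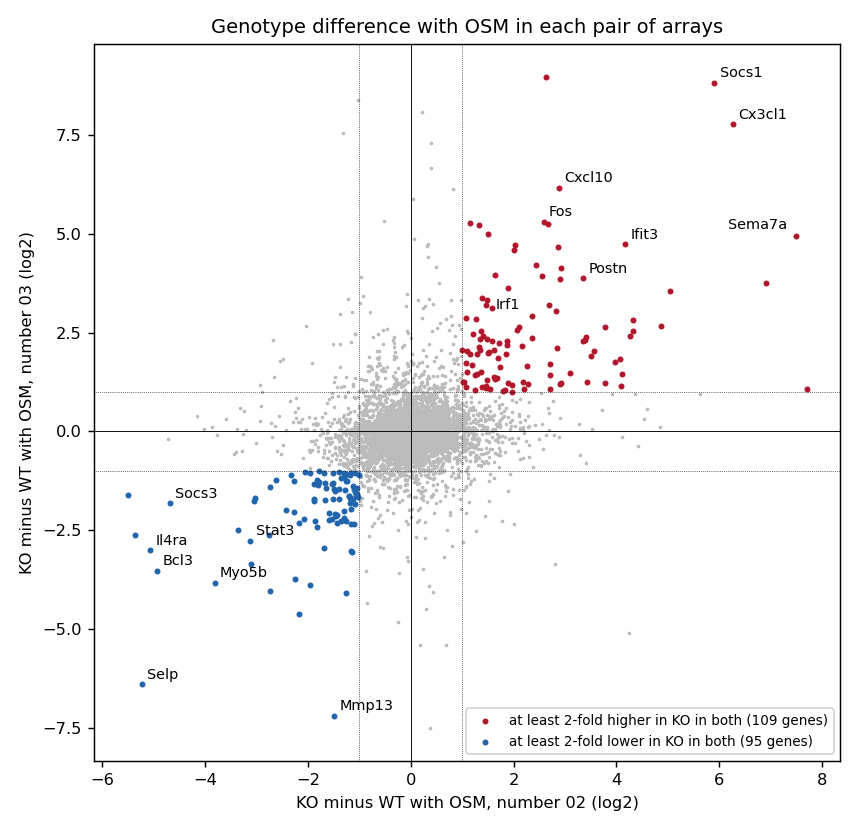
Each point is 1 of 5195 genes, with its Stat3 KO minus Stat3 WT difference with OSM (log2) in the arrays numbered 02 on the horizontal axis and 03 on the vertical axis. Dotted lines mark 2-fold; the 109 genes higher in both pairs are red and the 95 lower in both are blue, and most genes (grey) lie near 0 with little relation between the pairs (r = 0.282).

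The targeted gene was lower on both Stat3 KO arrays. Stat3, on chromosome 11, read 11.82 and 11.94 in Stat3 WT with OSM and 8.70 and 9.17 in Stat3 KO with OSM, and the groups did not overlap. The difference was -2.94 ± 0.26 (limma SE), 7.69-fold, with an adjusted p of 0.0476 by limma. The other probe set of Stat3 read 11.99 and 12.57 in Stat3 WT and 2.94 and 7.30 in Stat3 KO, a difference of -7.16. Both probe sets were thus lower in Stat3 KO, but 3 of these 4 Stat3 KO readings were well above 5, so signal of Stat3 probes remained in the line labelled STAT3-/-. The first probe set also moved by 0.99 with OSM in Stat3 KO. Whether these probes lie outside the deleted stretch is not known here, so they check the label only in part.

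Of the receptor chains that OSM uses, Osmr differed most. Of 6 gp130 receptors and ligands tested, 3 were above 0, and 1 passed the 2-fold count, Osmr. It read 12.81 and 14.22 in Stat3 WT and 10.54 and 12.95 in Stat3 KO, a difference of -1.77 ± 0.43 that did not pass (limma adjusted p = 0.234). The groups overlapped by a small margin, and Stat3 KO was lower within each number. The shared chain gp130 (Il6st) differed by -0.32 ± 0.42 and Lifr by 0.38 ± 0.51, each with a sign that turned when single arrays were left out (-0.73 to 0.09 for Il6st, -0.28 to 1.03 for Lifr). The kinases that sit on these receptors differed from each other in this respect. Jak2 read 12.18 and 12.71 in Stat3 WT and 9.75 and 10.71 in Stat3 KO, a difference of -2.21 ± 0.38 with no overlap (limma adjusted p = 0.134, not passed). Jak1 differed by 0.28 ± 0.17. Jak2 passed with a block for each genotype (limma adjusted p = 0.019).

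The inhibitors of the pathway stood at opposite ends. Socs3, the feedback inhibitor that STAT3 induces and that binds gp130, read 13.80 and 13.80 in Stat3 WT and 9.12 and 11.98 in Stat3 KO. The 2 Stat3 WT arrays were nearly identical and both were above both Stat3 KO arrays, by -3.25 ± 1.24 on average (limma adjusted p = 0.398, not passed). Socs1, an inhibitor of JAK kinases that interferons induce, read 2.40 and 2.58 in Stat3 WT, below the limit of 5, and 8.30 and 11.40 in Stat3 KO. The difference was 7.36 ± 0.85 (limma adjusted p = 0.085 with the shared block and 0.000956 with a block for each genotype, so the call depends on the block), or 4.85 when values under 5 were set to 5. In untreated cells Socs1 read 1.13 and 1.49 in Stat3 WT and 1.14 and 4.10 in Stat3 KO, so it was above 5 on the Stat3 KO arrays with OSM and on no others. Socs2, another member of the family, was lower by -1.17 and -1.97 in the 2 pairs. Over the 15 JAK-STAT genes tested the median was -0.20, with 1 gene at least 2-fold higher (Socs1; 6.67%, against 2.1% of all genes) and 4 lower (Socs3, Stat3, Jak2 and Socs2; 26.7%, against 1.83%). The 26.7% includes Stat3, the targeted gene itself. The median of the 15 genes had no stable sign: it was 0.05 without Stat3 WT with OSM 02 and -0.33 to -0.24 without any other of the 4 arrays.

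The proximal promoters of Socs3, Socs1, Irf1 and Ifit3 are shown as examples, and each holds a match to a pattern given below. Irf1 is on both the STAT3-linked and the interferon-stimulated list, and it was higher in Stat3 KO. Each is the 250 bases before the annotated start, 5′ to 3′ on the gene's strand, from RefSeq on GRCm38.p6. Capitals mark every match, on either strand, to TTCNNNGAA, the spacing that STAT dimers bind, or to GAAANNGAAA, the core of interferon response elements. Socs3 lies at chr11:117969367-117969616 on the minus strand, and its match is 154 to 146 bases upstream. Irf1 lies at chr11:53769764-53770013 on the plus strand, with a match 90 to 82 bases upstream, and a second annotated start of Irf1 has none. Socs1 lies at chr16:10785537-10785786 on the minus strand, with 2 overlapping matches at 83 to 74 and 77 to 68 bases upstream. Ifit3 lies at chr19:34583279-34583528 on the plus strand, with matches 156 to 147 and 122 to 113 bases upstream.
Socs3: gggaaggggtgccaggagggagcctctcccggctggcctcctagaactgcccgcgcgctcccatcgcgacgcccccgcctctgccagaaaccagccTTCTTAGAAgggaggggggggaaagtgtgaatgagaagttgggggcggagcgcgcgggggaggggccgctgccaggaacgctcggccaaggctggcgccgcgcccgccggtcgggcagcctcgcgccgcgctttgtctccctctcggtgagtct
Irf1: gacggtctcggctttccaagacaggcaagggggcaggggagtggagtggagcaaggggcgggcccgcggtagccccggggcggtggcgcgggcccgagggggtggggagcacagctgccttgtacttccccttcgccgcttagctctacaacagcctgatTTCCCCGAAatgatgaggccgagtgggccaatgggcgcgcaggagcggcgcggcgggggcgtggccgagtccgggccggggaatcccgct
Socs1: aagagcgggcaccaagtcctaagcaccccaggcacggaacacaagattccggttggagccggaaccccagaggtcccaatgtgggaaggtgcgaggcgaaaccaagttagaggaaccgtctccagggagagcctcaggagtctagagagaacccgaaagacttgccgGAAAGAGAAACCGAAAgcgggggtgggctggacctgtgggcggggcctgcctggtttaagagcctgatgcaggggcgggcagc
Ifit3: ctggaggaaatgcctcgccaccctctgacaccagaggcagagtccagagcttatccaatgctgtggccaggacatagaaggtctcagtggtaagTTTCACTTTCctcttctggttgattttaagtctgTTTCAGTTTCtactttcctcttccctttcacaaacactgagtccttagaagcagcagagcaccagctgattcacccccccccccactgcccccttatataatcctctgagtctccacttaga
The first 2 promoters hold the STAT spacing and the other 2 the interferon core. In any of their annotated windows of this length, 8.13% of 27025 genes hold TTCNNNGAA and 3.46% hold GAAANNGAAA. Among tested genes with a window the shares were 6.95% and 3.25% of 4245. Of 63 named genes with a window, 5 (7.94%) held TTCNNNGAA and 7 (11.1%) held GAAANNGAAA. The lower STAT3-linked genes Bcl3, Il4ra, Osmr and Klf6 held neither. Of the 92 genes with a window among those at least 2-fold higher in Stat3 KO, 10 (10.9%) held TTCNNNGAA and 16 (17.4%) held GAAANNGAAA. Of the 74 lower genes, 8 (10.8%) held the first and 3 (4.05%) the second. These are counts of letters, not of binding sites, and were not tested.

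Genes that STAT3 is known to induce were more often lower than higher in Stat3 KO. Of 34 STAT3-linked genes tested, 24 were below 0, the median difference was -0.77, and 8 were at least 2-fold lower in both pairs (23.5%, against 1.83% of all genes) while 4 were higher (11.8%, against 2.1%). The 8 lower genes were Bcl3, Il4ra, Socs3, Cebpd, Icam1, Osmr, Klf6 and Gadd45g. The 4 higher ones were Irf1, Fos, Ccnd1 and Klf4, of which Irf1 alone passed the test. With a block for each genotype 4 members passed as lower and 3 as higher. The pairs differed in size: the median was -0.8 in the 02 pair and -0.29 in the 03 pair, where 14 of the 34 genes were above 0. The median of the mean difference was -0.49 without Stat3 KO with OSM 02 and -0.51 without Stat3 WT with OSM 02. The list was chosen with earlier results of these arrays known, so its direction is a description.

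Bcl3, an atypical inhibitor-of-kB protein that acts in the nucleus, read 11.48 and 11.30 in Stat3 WT and 6.55 and 7.77 in Stat3 KO. The difference was -4.23 ± 1.03 (limma adjusted p = 0.234, not passed), with wide separation between the groups. The interleukin-4 receptor chain Il4ra read 13.92 and 15.34 in Stat3 WT and 8.86 and 12.34 in Stat3 KO, a difference of -4.03 ± 0.66 (limma adjusted p = 0.134, not passed). Its lowest Stat3 WT array was above its highest Stat3 KO array. Cebpd, a transcription factor of acute phase and growth arrest programs, read 14.61 and 14.96 in Stat3 WT and 11.25 and 12.48 in Stat3 KO. Its difference of -2.92 ± 0.36 was the most precise of the 3 (limma adjusted p = 0.091, not passed; 0.027 with a block for each genotype). The adhesion molecule Icam1 was lower by -1.16 and -3.02 in the 2 pairs and the stress protein gene Gadd45g by -1.16 and -1.06. Junb (-0.82 ± 0.36), Timp1 (-0.73 ± 0.37), Vegfa (-0.71 ± 0.31) and Cebpb (-0.53 ± 0.30) were lower in both pairs by less than 2-fold on average, and none passed. The other probe set of Junb was lower by more than 2-fold on average (-1.25 ± 0.55) and did not pass either.

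Some STAT3-linked genes differed by at least 2-fold in 1 pair only or in neither. The acute phase gene Saa3 read 3.85 and 12.18 in Stat3 WT and 4.22 and 4.66 in Stat3 KO, so it was high on a single array. The chemokine Ccl2, read at 14.48 to 16.32 on all 4 arrays, differed by 0.40 ± 0.61, and the sign turned when single arrays were left out (-0.40 to 1.20).

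The strongest single call was Cx3cl1, or fractalkine, a membrane-bound chemokine. It read 8.14 and 6.78 in Stat3 WT and 14.40 and 14.54 in Stat3 KO, 7.01 ± 0.40 apart, or 129-fold (limma adjusted p = 0.0162). The groups were far apart on all arrays, untreated ones included (7.89 and 7.92 against 13.45 and 12.75). Selp, the adhesion receptor P-selectin best known from endothelium and platelets, read 9.0 and 11.22 in Stat3 WT and 3.77 and 4.82 in Stat3 KO, below 5 on both. Its difference was -5.81 ± 0.35 (limma adjusted p = 0.0162), or -5.11 with values under 5 set to 5. In untreated cells it was -3.11, and OSM moved Selp by 2.40 in Stat3 WT and by -0.31 in Stat3 KO. Both calls had adjusted p from 0.0397 to 0.117 when single arrays were left out.

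Periostin (Postn), a secreted matrix protein, read 4.45 and 3.78 in Stat3 WT, below 5, and 7.80 and 7.66 in Stat3 KO. It differed by 3.61 ± 0.28 (limma adjusted p = 0.0387), or by 2.73 with values under 5 set to 5, and by 4.02 in untreated cells. Myo5b, an unconventional myosin that carries recycling vesicles, read 7.51 and 8.56 in Stat3 WT and 3.70 and 4.74 in Stat3 KO. Its difference was -3.82 ± 0.35 (limma adjusted p = 0.0476), or -3.04 with values under 5 set to 5. Neither gene had overlapping groups. The called probe set of Notch1 read 2.73 and 2.90 in Stat3 WT and 6.90 and 8.23 in Stat3 KO, a difference of 4.75 ± 0.42 (limma adjusted p = 0.0476) that was 2.57 with values under 5 set to 5. The brighter probe set of Notch1 read 6.98 and 7.12 in Stat3 WT and 7.90 and 8.27 in Stat3 KO, so both were higher in Stat3 KO, by very different amounts. The naming rule takes the brighter probe set, so the called one was singled out after its values were seen.

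Interferon-stimulated genes were higher in Stat3 KO. Of 33 tested, 32 had a mean difference above 0, against 49.3% of all genes, and the median was 1.98, against -0.01. In both pairs 15 genes (45.5%, against 2.1% of all genes) were at least 2-fold higher and none lower. 1 of the 33, Irf1, passed the test, and 11 passed with a block for each genotype, all higher. The median was 1.0 in the 02 pair and 2.41 in the 03 pair.

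Irf1, an interferon regulatory factor that drives class I antigen presentation genes, read 11.12 and 11.91 in Stat3 WT and 13.48 and 14.82 in Stat3 KO. The groups did not overlap and the difference was 2.64 ± 0.21, or 6.22-fold (limma adjusted p = 0.0387). In untreated cells it was 0.65, and OSM moved Irf1 by 0.07 in Stat3 WT and by 2.06 in Stat3 KO. Ifit3 and Ifit1, antiviral proteins of the IFIT family, ran high on the arrays numbered 03 in both genotypes. Ifit3 read 2.88 and 10.25 in Stat3 WT and 7.05 and 14.98 in Stat3 KO, so the levels overlapped while Stat3 KO was higher within each number, by 4.45 ± 0.55 on average (limma adjusted p = 0.091, not passed). Ifit1 differed by 3.34 ± 0.56 in the same pattern (limma adjusted p = 0.134, not passed). The immunity-related GTPases, which act on vacuoles of intracellular pathogens, were higher in both pairs: Igtp by 4.86 and 2.67, Irgm2 by 3.78 and 2.64, Irgm1 by 3.38 and 2.32, and Iigp1 by 2.70 and 3.18. Trim21, an antibody receptor in the cytosol, read 6.15 and 7.70 in Stat3 WT and 8.0 and 9.66 in Stat3 KO (1.90 ± 0.35, limma adjusted p = 0.144, not passed). With a block for each genotype Ifit3, Ifit1 and Trim21 passed (limma adjusted p = 0.0139, 0.015 and 0.0345).

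Another set of interferon genes stood apart on a single array. Rsad2, an antiviral enzyme, read 3.34 and 4.22 in Stat3 WT with OSM and 3.56 and 12.31 in Stat3 KO with OSM. Mx1, an antiviral GTPase, read 3.60 and 4.52 in Stat3 WT and 3.99 and 11.19 in Stat3 KO. Both were near background on 3 arrays and high on the Stat3 KO array numbered 03. Cmpk2 (0.39 and 7.29), Irf7 (0.03 and 5.88), Mx2 (-0.53 and 5.31), Usp18 (0.34 and 4.42) and Ifit2 likewise differed by at least 2-fold in the 03 pair and not in the 02 pair. The part of the number in these differences was not tested.

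Class I antigen presentation followed. Of 12 immunoproteasome and MHC class I genes tested, 11 were above 0, the median was 1.26, and 5 (41.7%, against 2.1%) were at least 2-fold higher in both pairs. These were Psmb8, Psmb9, Tap1, Tap2 and H2-K1, and none of them passed the test. The immunoproteasome subunit Psmb8 read 8.06 and 7.67 in Stat3 WT and 10.92 and 12.34 in Stat3 KO, without overlap (3.77 ± 0.76, limma adjusted p = 0.185). Its sister subunit Psmb9 read 3.53 and 7.30 in Stat3 WT and 6.45 and 11.42 in Stat3 KO (3.52 ± 1.23, limma adjusted p = 0.358), and the levels of the groups overlapped. The peptide transporter Tap1 differed by 1.96 ± 0.62 and the class I heavy chain H2-K1 by 2.39 ± 0.69. The other probe set of H2-K1 differed by 0.14 and 3.37 in the 2 pairs, so it missed the 2-fold count. Psmb8 and H2-K1 passed with a block for each genotype (limma adjusted p = 0.0182 and 0.0118). In untreated cells the median of the list was 1.44, and Psmb8 differed there by 5.51, where no gene passed either.

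Among chemokines of the interferon response, Cxcl10 read 5.61 and 7.94 in Stat3 WT and 8.48 and 14.11 in Stat3 KO, without overlap (4.52 ± 1.06, limma adjusted p = 0.231, not passed). Ccl5, a chemokine for T cells and monocytes, was higher by 0.98 and 3.31 in the 2 pairs (2.15 ± 0.58, limma adjusted p = 0.266, not passed). Both passed with a block for each genotype (limma adjusted p = 0.00515 for Cxcl10 and 0.034 for Ccl5). Over 27 NF-kB and chemokine genes tested the median was -0.26 (-0.06 without Stat3 WT with OSM 02 and -0.40 without Stat3 WT with OSM 03). In both pairs 2 genes were at least 2-fold higher (Cx3cl1 and Cxcl10; 7.4%, against 2.1% of all genes). The 3 lower ones were Bcl3, Icam1 and Tnfaip3 (11.1%, against 1.83%). Tnfaip3, a brake on NF-kB signalling, differed by -1.5 ± 0.32, or by -0.73 with values under 5 set to 5, and did not pass.

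**Figure D2:**
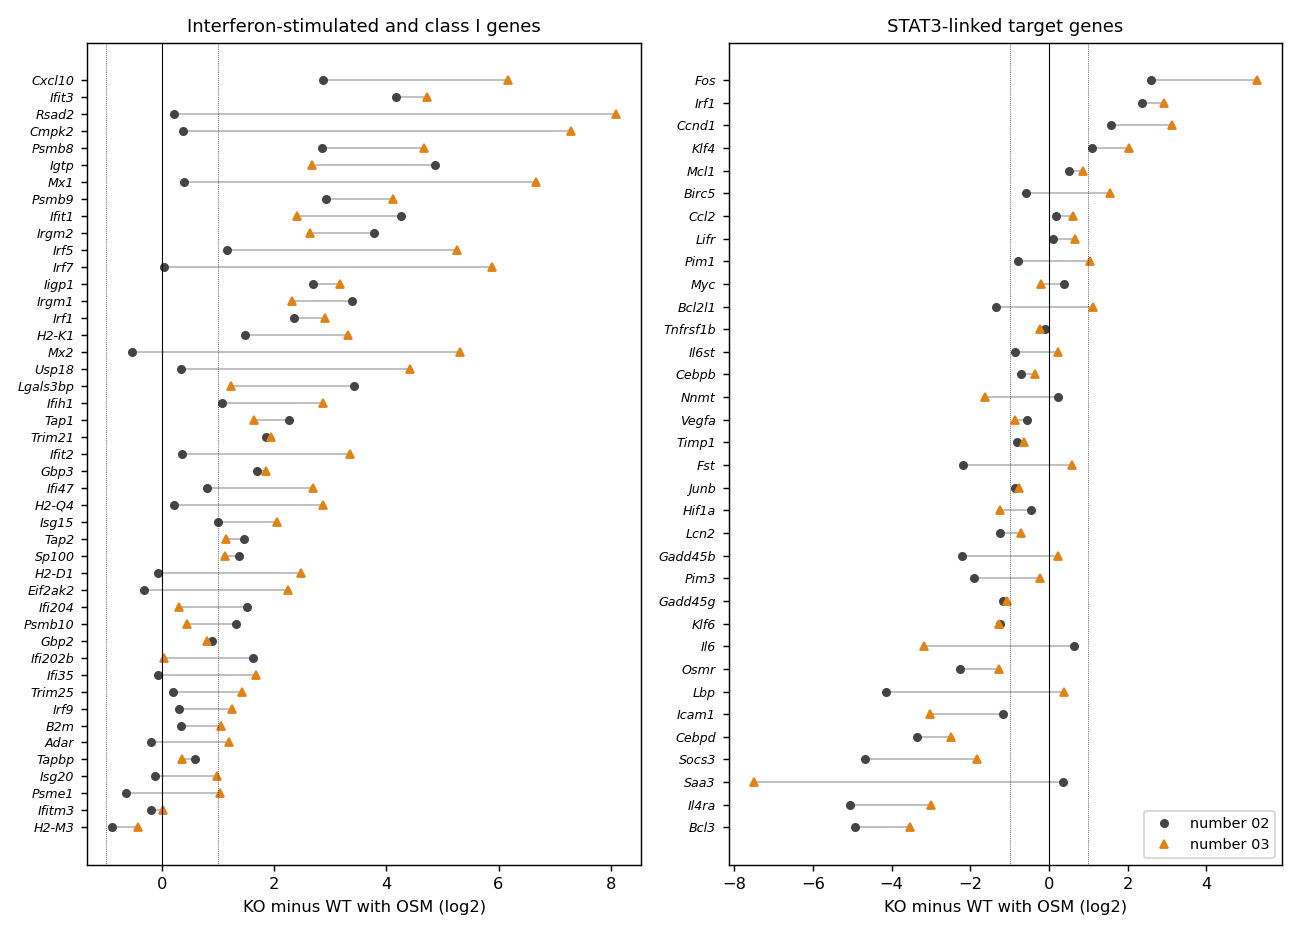
Stat3 KO minus Stat3 WT differences with OSM (log2) for each tested gene of the interferon-stimulated and class I lists (left) and of the STAT3-linked list (right), with the 02 pair as a circle and the 03 pair as a triangle joined by a line; dotted lines mark 2-fold. On the left 32 of 33 interferon-stimulated genes and 11 of 12 class I genes have a mean above 0, and several lines from Rsad2 to Mx2 run from near 0 in the 02 pair to above 5 in the 03 pair.

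Early response genes driven by ERK and serum were not uniformly different. Over 28 AP-1 and serum-type genes tested the median was 0.51, at -0.23 in the 02 pair and 1.22 in the 03 pair. It was 0.01 without Stat3 WT with OSM 03, 0.23 without Stat3 KO with OSM 03, 0.78 without Stat3 KO with OSM 02 and 1.07 without Stat3 WT with OSM 02. The list held 6 genes at least 2-fold higher in both pairs (Fos, Egr1, Egr2, Klf4, Nr4a1 and Ptgs2; 21.4%, against 2.1% of all genes) and 2 lower (Dusp1 and Klf6; 7.14%, against 1.83%). None of these 8 passed the test, and with a block for each genotype 4 members of the list passed, all higher. Fos, a subunit of AP-1, read 3.09 and 7.75 in Stat3 WT and 5.67 and 13.05 in Stat3 KO. Its levels overlapped across the numbers, while Stat3 KO was higher within each, by 3.94 ± 0.76 on average (limma adjusted p = 0.163). Egr2 read 7.36 and 7.75 in Stat3 WT and 9.38 and 12.35 in Stat3 KO, without overlap (3.31 ± 0.64, limma adjusted p = 0.168). The prostaglandin synthase Ptgs2 was higher by 2.70 and 1.08 in the 2 pairs and the nuclear receptor Nr4a1 by 1.33 and 5.21. With a block for each genotype Fos and Egr2 passed (limma adjusted p = 0.00553 and 0.0163). Egr1, a relative of Egr2, differed by 1.72 ± 0.92 (limma adjusted p = 0.494).

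Of 11 ERK feedback genes and EGF receptor ligands tested, 10 were above 0 (against 49.3% of all genes), the median was 0.49 (0.85 without Stat3 KO with OSM 03), and 3 were at least 2-fold higher in both pairs (27.3%, against 2.1%). Epiregulin (Ereg), a ligand of the EGF receptor, read 8.89 and 8.67 in Stat3 WT and 10.76 and 10.94 in Stat3 KO, without overlap and with close replicates (2.07 ± 0.43, limma adjusted p = 0.195, not passed). Errfi1, an inhibitor of that receptor, read 11.64 and 11.70 in Stat3 WT and 13.22 and 13.98 in Stat3 KO (1.93 ± 0.67, limma adjusted p = 0.352, not passed). Both genes were thus higher on each Stat3 KO array. Phlda1 differed by 1.15 ± 0.62. Dusp1, a phosphatase of MAP kinases, was the only member at least 2-fold lower (-1.31 ± 0.53).

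2 cell surface genes outside these lists read near background except on the Stat3 KO arrays with OSM. Sema7a, a membrane-anchored semaphorin, read 1.97 and 2.53 in Stat3 WT with OSM and 9.47 and 7.48 in Stat3 KO with OSM. The difference was 6.22 ± 0.66 (limma adjusted p = 0.072, not passed), or 3.48 with values under 5 set to 5. On the 4 untreated arrays Sema7a read 2.09 to 2.60. Ptger4, a receptor for prostaglandin E2, read 4.08 and 4.51 in Stat3 WT and 7.64 and 6.55 in Stat3 KO (2.80 ± 0.41, limma adjusted p = 0.114, not passed). Both passed with a block for each genotype (limma adjusted p = 0.0142 for Sema7a and 0.0321 for Ptger4).

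**Figure D3:**
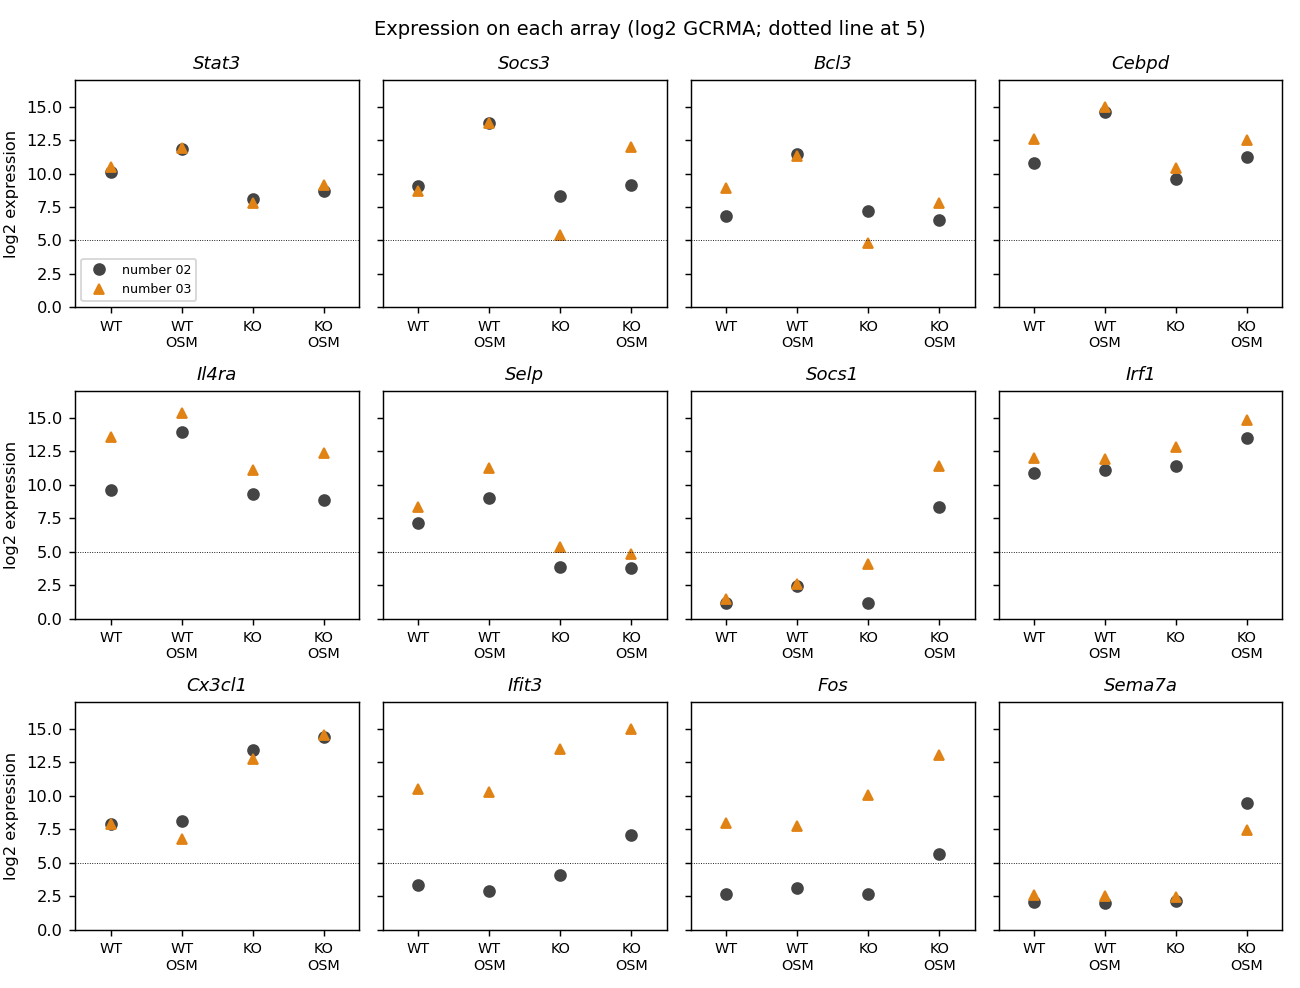
Log2 expression of 12 genes on all 8 arrays, by group, with circles for number 02 and triangles for number 03 and a dotted line at the limit of 5. Socs1 and Sema7a are above 5 only on the Stat3 KO arrays with OSM, Stat3, Bcl3 and Selp are lower on the Stat3 KO arrays with OSM than on the Stat3 WT arrays with OSM, and Ifit3 and Fos run higher on the 03 arrays in every group.

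Genes of glucose use and the hypoxia response were lower in Stat3 KO. Of 26 tested, 21 were below 0, the median was -0.63 (-0.44 and -0.78 in the 2 pairs), and 4 (15.4%, against 1.83% of all genes) were at least 2-fold lower in both pairs, with none higher. No member passed the test, and 4 passed with a block for each genotype, all lower (Pfkl, Gys1, P4ha2 and Hk2, limma adjusted p = 0.0154, 0.034, 0.0338 and 0.0379). The median was -0.39 without Stat3 KO with OSM 03. The liver-type phosphofructokinase Pfkl, a committed step of glycolysis, read 12.96 and 12.13 in Stat3 WT and 11.56 and 10.41 in Stat3 KO (-1.56 ± 0.18, limma adjusted p = 0.085, not passed). The groups did not overlap. Glycogen synthase Gys1 read 10.77 and 10.60 in Stat3 WT and 9.08 and 7.64 in Stat3 KO (-2.32 ± 0.37, limma adjusted p = 0.127, not passed), and it was 0.05 apart in untreated cells. The collagen prolyl hydroxylase P4ha2 (-1.42 ± 0.24) and the oxygen sensor Egln1 (-1.27 ± 0.36) were the other 2. The second probe set of P4ha2 differed by -0.20 and -1.39 in the 2 pairs, so it missed the 2-fold count. Hexokinase 2 (Hk2) just missed the 2-fold count, at -1.10 and -0.96. The 42 respiratory chain genes tested had a median of -0.05, and none was 2-fold apart in both pairs.

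The matrix program showed single large differences and no common shift. Over 35 fibroblast matrix genes tested the median was -0.01. In both pairs 5 (14.3%, against 2.1% of all genes) were at least 2-fold higher and 2 (5.7%, against 1.83%) lower. Tenascin C (Tnc), a matrix protein of wound and tumour stroma, read 9.60 and 9.73 in Stat3 WT and 11.71 and 12.37 in Stat3 KO (2.37 ± 0.30, limma adjusted p = 0.092, not passed). The groups were well apart. The collagen-binding proteoglycan fibromodulin (Fmod) read 10.06 and 7.59 in Stat3 WT and 12.73 and 12.84 in Stat3 KO (3.96 ± 0.81, limma adjusted p = 0.192, not passed), but its other probe set differed by -0.20. The collagen chains Col6a3 (7.70 and 1.07 in the 2 pairs) and Col8a1 (1.26 and 1.42) completed the higher genes, and the basement membrane protein gene Nid1 (-1.27 and -1.25) and P4ha2 were the lower ones. Tnc and Fmod passed with a block for each genotype (limma adjusted p = 0.00887 and 0.00469). Col1a1 (-0.18 ± 0.20), Col3a1 (0.03 ± 0.35) and Fn1 (-0.04 ± 0.21), the bulk of fibroblast matrix, were close to 0.

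Among proteases, the gelatinase Mmp9 read 5.52 and 4.96 in Stat3 WT and 8.93 and 7.35 in Stat3 KO, without overlap (2.91 ± 0.41, limma adjusted p = 0.114, not passed). The collagenase Mmp13 went the other way and unevenly, at 5.54 and 11.62 in Stat3 WT and 4.05 and 4.42 in Stat3 KO (-4.34 ± 1.93, limma adjusted p = 0.438, not passed). Serpinb2, an inhibitor of plasminogen activators, read 6.36 and 9.91 in Stat3 WT and 4.19 and 5.3 in Stat3 KO (-3.39 ± 0.78, limma adjusted p = 0.229, not passed). On untreated arrays Serpinb2 read 2.38 to 2.94, and OSM moved it by 5.47 in Stat3 WT and 2.19 in Stat3 KO. Mmp9 and Mmp13 passed with a block for each genotype (limma adjusted p = 0.00968 and 0.043). For Mmp13 that fit leaves out much of the spread between the pairs, which differed by -1.49 and -7.20. Over 22 proteases and inhibitors tested the median was 0.07 (-0.24 to 0.18 when 1 of the 4 arrays was left out). By the 2-fold count 2 genes were higher (9.1%, against 2.1% of all genes) and 2 lower (9.1%, against 1.83%).

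Developmental signalling genes split evenly. Of 38 TGF-beta, BMP, Wnt and Notch genes tested, 19 were above 0 and the median was 0.03. In both pairs 3 (7.9%, against 2.1% of all genes) were at least 2-fold higher and 3 (7.9%, against 1.83%) lower. The Wnt ligands Wnt4 (-2.25 ± 0.35) and Wnt5a (-1.65 ± 0.27) and the repressor Snai1 (-1.25 ± 0.22) were at least 2-fold lower in both pairs. Twist1, a transcription factor of mesenchyme, was higher (2.03 ± 0.33, limma adjusted p = 0.134). The BMP antagonist Grem1 (1.84 and 1.04 in the 2 pairs) and the activin subunit Inhba (2.92 and 1.21) were the other higher genes. None of these 6 passed, while Wnt4, Wnt5a, Snai1 and Twist1 did with a block for each genotype (limma adjusted p = 0.03, 0.0444, 0.0321 and 0.0482). The Wnt agonist Rspo1 read 7.47 and 9.72 in Stat3 WT and 8.87 and 12.13 in Stat3 KO (1.91 ± 0.29, limma adjusted p = 0.123, not passed; 0.0267 with a block for each genotype). The death receptor Fas (-2.41 ± 0.35) and the 4-1BB ligand Tnfsf9 (-2.99 ± 0.41), both of the TNF system, were lower in both pairs, and neither passed except with a block for each genotype (limma adjusted p = 0.029 and 0.019).

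Other genes in the first 15 of each direction had no list in common. The GTPase gene Rhou, known as a target of Wnt and STAT3 signalling, read 11.69 and 12.54 in Stat3 WT and 8.94 and 9.93 in Stat3 KO (-2.68 ± 0.27, limma adjusted p = 0.065, not passed). Its second probe set differed in the same direction. Nek6, a mitotic kinase (-2.06 ± 0.24), Cystm1 (-3.39 ± 0.40), the prostacyclin synthase Ptgis (-1.17 ± 0.15) and Pax3, a factor of neural crest and muscle precursors (-2.15 ± 0.30), were lower. Ggct, an enzyme of glutathione breakdown (2.36 ± 0.26), Vamp5 (1.51 ± 0.19), Nrep (2.16 ± 0.31) and Srpx (2.82 ± 0.42) were higher. None of these 8 passed, and their adjusted p lay between those of Rhou and Rspo1. All 8, and Rhou, passed with a block for each genotype (limma adjusted p from 0.00515 for Cystm1 to 0.032 for Pax3).

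Several broad cell programs gave no 2-fold differences in both pairs. This held for all 38 mitotic, 38 replication, 31 heat shock, 31 antioxidant, 17 cholesterol and 23 contractile genes tested. The mitotic and replication lists did move with the number. 37 of 38 mitotic genes were above 0 in the 03 pair and 12 in the 02 pair, with medians of 1.36 and -0.33, and the replication list had medians of 0.56 and -0.39. The mean of the pairs had a mitotic median of 0.61, which was -0.11 without Stat3 WT with OSM 03 and 1.29 without Stat3 WT with OSM 02. The proliferation marker Mki67 shows it, at 11.70 and 9.44 in Stat3 WT and 11.92 and 11.20 in Stat3 KO, where the Stat3 WT array numbered 03 is the low one. The interferon list had medians of 1.0 in the 02 pair and 2.41 in the 03 pair. The part of the number and of cell cycle state in the interferon and other results was not tested.

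**Figure D4:**
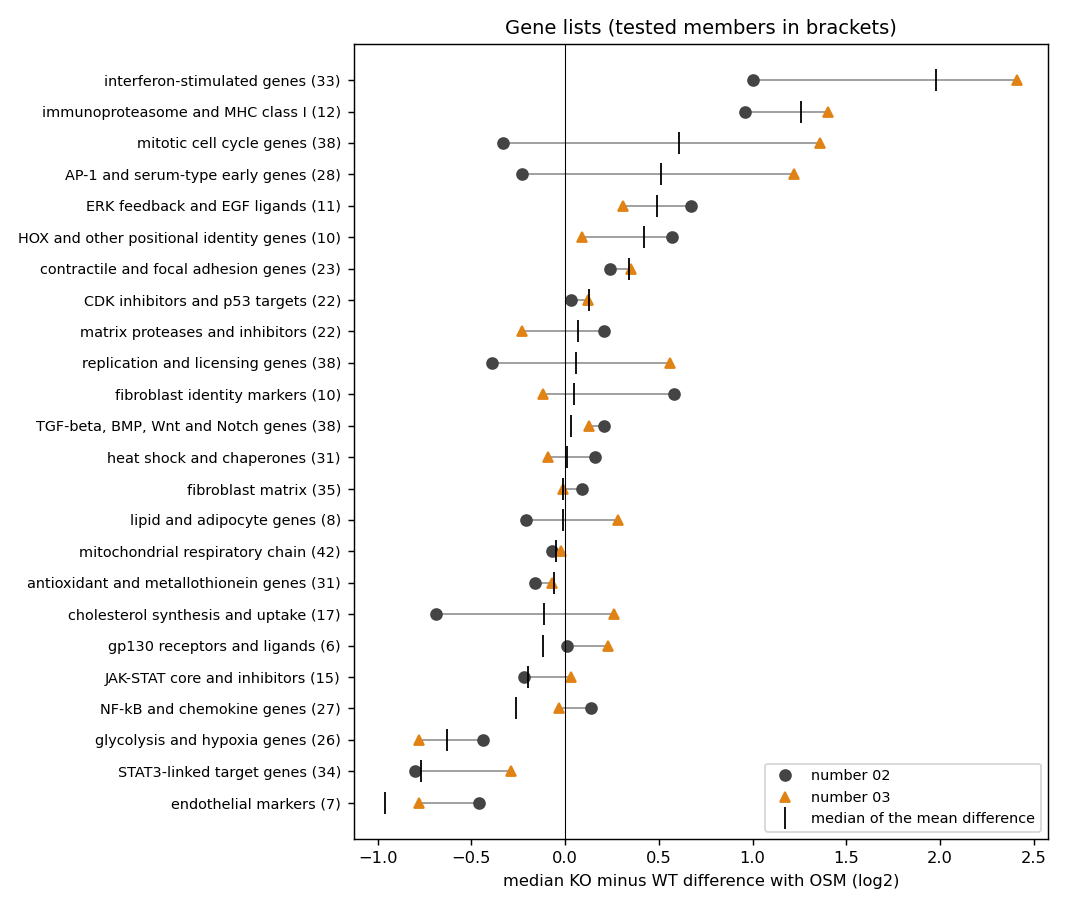
Median Stat3 KO minus Stat3 WT difference with OSM (log2) over the tested members of each gene list, with the number tested in brackets, for the 02 pair (circle), the 03 pair (triangle) and the mean of both (bar). Interferon-stimulated (1.98) and class I genes (1.26) are above 0 in both pairs, STAT3-linked (-0.77) and glycolysis genes (-0.63) are below 0 in both, and the mitotic list lies on opposite sides of 0.

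The cells are labelled as embryonic fibroblasts, and most fibroblast markers were read. Of 12 fibroblast markers 10 were kept, with a median difference of 0.05 (-0.14 to 0.30 when 1 of the 4 arrays was left out), and S100a4 read 14.99 to 15.64. The probe sets of Vim and Thy1 were under 5 and were not tested. The receptor Pdgfrb differed by 1.89 and 1.23 in the 2 pairs, which passed only with a block for each genotype (limma adjusted p = 0.0256). Few markers of several other cell types were kept: 3 of 15 epithelial, 2 of 19 leukocyte, 4 of 21 muscle, 4 of 18 neural and 1 of 9 cartilage and bone markers. Of lipid and adipocyte genes, 8 of 17 were kept, with a median difference of -0.01. Their mean level on the 4 arrays was 10.85 to 11.10, near that of the fibroblast markers (11.03 to 12.57). Of endothelial markers, 7 of 14 were kept, with a median of -0.96, which was -0.31 without Stat3 WT with OSM 03 and -0.56 without Stat3 KO with OSM 02. Selp and the lymphatic growth factor receptor Flt4 (-3.23 ± 0.55) were at least 2-fold lower in both pairs (28.6% of the 7, against 1.83% of all genes). Flt4 did not pass (limma adjusted p = 0.134, and 0.0379 with a block for each genotype), and its other probe set differed by -0.89 and -2.55. The log2 of the summed level of these endothelial markers was 11.09 and 13.06 in Stat3 WT and 11.54 and 11.57 in Stat3 KO, so the groups overlapped. Pecam1, a defining gene of endothelium, read 5.66 to 5.97, and fewer cells of a type and less RNA per cell cannot be told apart in such samples. The Y-linked gene Eif2s3y differed by 2.05 ± 0.61 and did not pass (limma adjusted p = 0.299), and Xist read under 5 on all arrays.

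The genotype difference with OSM was set beside that without OSM, measured on the other 4 arrays. No probe set passed in untreated cells (limma, 0%, with 653 at unadjusted p under 0.05), and none passed the test of the difference between the 2 genotype effects (limma interaction, 0%, with 248 at unadjusted p under 0.05). With a block for each genotype, 84 (1.24%) passed in untreated cells and 1 (0.0148%) passed the interaction, Socs1. The differences with and without OSM correlated at r = 0.615 across genes. By the 2-fold count, 52 genes were higher and 51 lower in untreated Stat3 KO. Of the higher genes 34 were shared, which is 31.2% of those with OSM and 65.4% of those without, and of the lower genes 17 were shared, 17.9% and 33.3%. No gene was 2-fold apart in opposite directions.

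Some genes differed about as much without OSM. Postn (3.61 with OSM and 4.02 without), Tnc (2.37 and 2.17), Pax3 (-2.15 and -2.40), Mmp9 (2.91 and 3.64) and Vamp5 (1.51 and 1.36) belong here. For other genes the difference was large with OSM and small without. These were Sema7a (6.22 and -0.07), Socs1 (7.36 and 1.31), Fos (3.94 and 1.05), Irf1 (2.64 and 0.65), Tnfsf9 (-2.99 and -0.34), Susd6 (-1.83 and -0.17) and Gys1 (-2.32 and 0.05). Osmr was the reverse, at -1.77 with OSM and -3.09 without. None of these contrasts passed the interaction test (limma adjusted p = 0.913 or above), so they are values side by side. The interferon-stimulated list had a median of 1.98 with OSM and 1.07 without, and 6 of its genes were at least 2-fold higher in both untreated pairs against 15 with OSM. Over all 5195 genes that count was also smaller without OSM, at 52 against 109. The STAT3-linked list had a median of -0.77 with OSM and -0.41 without.

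The lists were also described without Stat3 KO with OSM 02, the array that stood apart. The median was then 2.00 for interferon-stimulated genes, 1.07 for class I genes, -0.49 for STAT3-linked genes and -0.75 for glycolysis and hypoxia genes, so each kept its direction. Without any 1 of the 4 OSM arrays these medians lay between 1.39 and 2.71, 0.87 and 1.73, -0.84 and -0.49, and -0.75 and -0.39.

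The effects of OSM within each line use the same arrays as these genotype differences, so they are given as values only. The median effect on interferon-stimulated genes was 0.64 in Stat3 WT and 1.53 in Stat3 KO, and on STAT3-linked genes 1.04 and 0.77. Bcl3 moved by 3.54 in Stat3 WT and 1.14 in Stat3 KO, Il4ra by 3.04 and 0.42, Cebpd by 3.12 and 1.88 and Socs3 by 4.89 and 3.71. The last 2 genes were thus higher with OSM in both lines. Ereg moved by 4.15 in Stat3 WT and 6.85 in Stat3 KO, and Hk2 by 3.39 and 3.09.

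**Figure D5:**
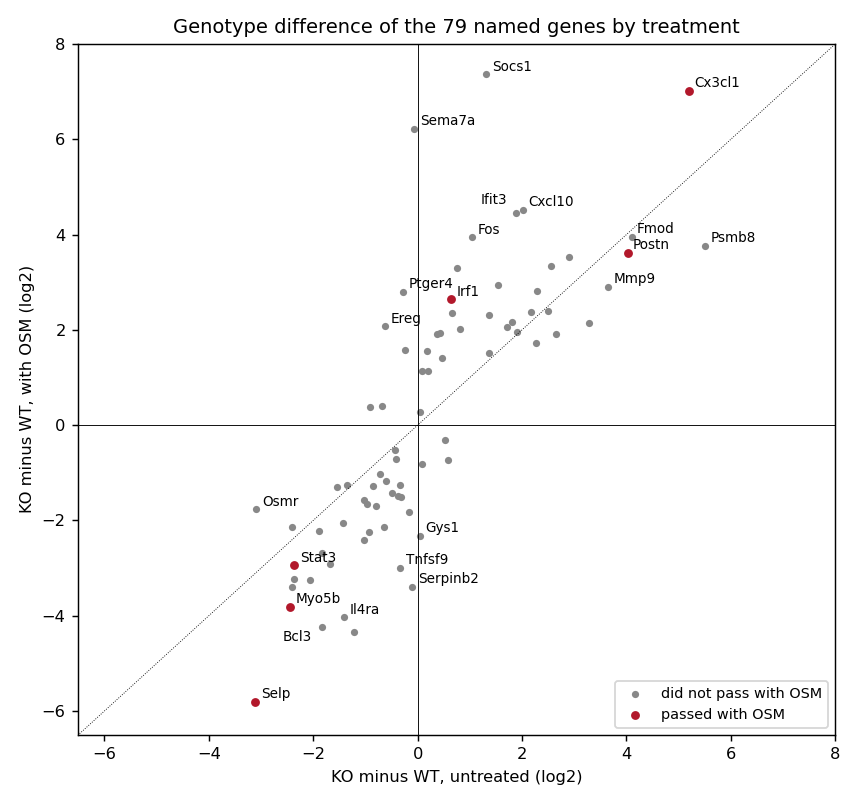
Stat3 KO minus Stat3 WT difference (log2) of the 79 named genes in untreated cells (horizontal axis) and with OSM (vertical axis), with genes that passed the test with OSM in red and a diagonal line of equal differences. Postn lies near the diagonal, Sema7a and Socs1 lie far above it, and Selp lies below it.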

How the data were processed

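Per the labels' protocols, the authors made cRNA from total RNA of 8 fibroblast samples by the Affymetrix procedure. Their deposited table holds 1 log2 value per probe set and array. The submitters' processing notes name GCRMA and affy, with versions not given in the sources used here. Dim probe sets are moved far down the scale by GCRMA, so a log2 difference can be too large where 1 group is dim, and differences were also computed with values under 5 set to 5.

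Groups and numbers come from the sample titles. The 66 control probe sets were set aside, and 396 probe sets with several symbols and 1193 with none were tested and not named. Gene names were checked against RefSeq GRCm38.p6, where 10817 of 10833 single-symbol probe sets matched. The test was that of limma 3.58.1 under R 4.3.3 (lmFit, eBayes with intensity trend, two-sided) on all 8 arrays, with 4 group means and the replicate number as a block, which leaves 3 residual degrees of freedom. Benjamini-Hochberg adjustment ran over 6756 probe sets, and an adjusted p under 0.05 was called. Errors are limma standard errors. The scripts were tested on simulated data.

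As a check of pairing, differences between arrays 03 and 02 were correlated between groups. The coefficient was 0.911 for the pair of Stat3 WT groups, 0.794 for the pair of Stat3 KO groups and 0.589 to 0.664 across genotypes.

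Named genes were a fixed set, the 15 with the smallest p in each direction (called first, then at least 2-fold apart in both pairs) and up to 4 per list, 79 in all. Genes outside this rule are named as list members. The 30 lists hold 968 memberships, of which 807 were on the array and 580 kept. The comparison, the lists and the members were chosen with earlier results of these data known. Lists were described by counts and medians, with no set test. Other settings were no block, a block per genotype, other filters, no trend, robust estimation, renewed quantile normalization, median centring, only the 4 arrays with OSM, another probe set per gene, a stricter fold and leaving out each array.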

Additional observations from a re-analysis of the deposited data

Results flagged for a closer look

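For 5 named genes the genotype difference had one sign in both pairs of arrays with OSM and the opposite sign in both untreated pairs. The difference with OSM minus that without was 3.08 (log2) for the prostaglandin receptor Ptger4, 2.70 for epiregulin (Ereg), -1.30 for the protease inhibitor Timp1, 1.28 for Lifr and 1.09 for Ccl2. None passed the limma interaction test (adjusted p = 0.913 for all 5). Only Ptger4 and Ereg were at least 2-fold apart in both pairs with OSM. The untreated differences of Ptger4 were -0.55 and -0.01, on values under 5, and those of Lifr and Ccl2 stand beside differences with OSM whose sign turned when single arrays were left out.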

How the results depend on the processing

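The 7 calls with OSM became 1 with no replicate block, 243 with the replicate block fitted separately for each genotype, 3 with no filter, 4 with a filter at log2 7, 1 with values under 5 set to 5, 0 with only the 4 OSM arrays, and 0 to 2 when single arrays were left out. The 0 calls in untreated cells became 84 with the genotype-separate replicate block, 2 with median centring, and 0 to 1 when single arrays were left out, and the 0 interaction calls became 1 with the genotype-separate block. These untreated alternatives were chosen after seeing the data. Median centring gave 9 calls and moved the median of all probe sets with OSM to -0.10. At 4-fold, 68 probe sets remained of the 255 at 2-fold. Over 79 named genes and 1429 alternatives, 1307 kept direction and side of the threshold, 69 lost the call, 48 gained it and 5 reversed, in 4 genes: Fmod by its other probe set (-0.20), and, leaving out single arrays, Il6st (-0.73 to 0.09), Lifr (-0.28 to 1.03) and Ccl2 (-0.40 to 1.20). Of the 79 genes, 73 were not called in the first place, so for them keeping the side mostly meant staying uncalled. All 69 losses fell on called genes, from 8 of 18 alternatives for Cx3cl1 to 14 of 19 for Stat3. The causes of these changes were not tested. With 2 arrays a group, the number of arrays limits every value, and differences that rest on dim values are uncertain in size.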
